A study of Mus musculus with 2 samples.

Results

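The Hox gene clusters of the mouse hold a small group of microRNA genes, and 6 of them were measured in C2C12 myocytes: Mir196b in HoxA, Mir10a and Mir196a-1 in HoxB, Mir196a-2 and Mir615 in HoxC, and Mir10b in HoxD. They were selected by gene name from the 2202 microRNA genes in the count tables, after the gene identifiers had been matched to the GENCODE M21 annotation. C2C12 is a myoblast line, here of strain C3H, that came from thigh muscle after a crush injury and turns into muscle cells in culture. The only group was C2C12 cells that had been differentiated into myocytes for 72 h, with 2 libraries labelled as biological replicates 1 and 2. The 2 libraries share the line and the treatment, so the data describe levels in these myocytes and the spread between both libraries. Undifferentiated cells and cells from other body positions were not analysed here.

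Hox genes encode transcription factors that give cells their position along the body axis and along the limb, and each cluster is switched on in the order in which its genes lie. The microRNAs inside the clusters are transcribed with the neighbouring Hox genes, and part of their known targets are Hox messengers. In the mouse, miR-196 is known for being present in the hindlimb and for repressing Hoxb8. The miR-10 genes lie next to Hoxb4 and within Hoxd4, and in zebrafish miR-10 has been tied to repression of hoxb1a and hoxb3a. The gene of miR-615 lies in an intron of Hoxc5.

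The mature sequences show which members act as the same microRNA and which reads can be told apart (RefSeq, build GRCm38.p6; 6 of 6 members matched). Capitals mark the seed, bases 2 to 8, which sets most of the target choice. The arm named is the 5p arm for miR-10 and miR-196 and the 3p arm for miR-615.
miR-196b-5p: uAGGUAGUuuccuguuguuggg
miR-196a-5p: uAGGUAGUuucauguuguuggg
miR-10a-5p: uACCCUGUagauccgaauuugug
miR-10b-5p: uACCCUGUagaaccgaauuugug
miR-615-3p: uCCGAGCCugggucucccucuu

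The members fall into 3 seed groups. The 3 miR-196 genes share the seed AGGUAGU and the 2 miR-10 genes share ACCCUGU. Among the 1738 mature microRNAs of the RefSeq table no gene outside these groups had the same seed, and miR-615-3p shared its seed with no other gene. The arms miR-10a-5p and miR-10b-5p differ by U12A, where the first base is that of miR-10a and positions count from the 5′ end. The arms miR-196a-5p and miR-196b-5p differ by A12C, with the base of miR-196a first. In both pairs the change lies outside the seed. The longest stretch shared by the hairpins of Mir10a and Mir10b was 15 bases, and Mir196b shared at most 12 bases with any other of the 2202 hairpins.

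Mir196a-1 and Mir196a-2 are different, since both encode the same miR-196a-5p. Their hairpins are printed with the shared stretch in capitals.
Mir196a-1: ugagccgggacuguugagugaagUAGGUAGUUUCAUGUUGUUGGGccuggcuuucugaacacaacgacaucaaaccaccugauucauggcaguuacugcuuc
Mir196a-2: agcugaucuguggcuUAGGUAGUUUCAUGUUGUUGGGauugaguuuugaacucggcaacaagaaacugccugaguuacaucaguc
The shared stretch was 22 bases long and was exactly the mature arm. A read of that arm with no further matching base therefore has 2 places of origin. The tables hold such reads only in an entry for multi-mapped reads, which took 22.0% of all reads in replicate 1 and 17.9% in replicate 2 and is not split by gene. The counts of Mir196a-1 and Mir196a-2 are thus uncertain as measures of miR-196a and can be too low. They include the reads that reach beyond the shared stretch or come from the 3p arms, which differ between the hairpins.

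Each library was deposited as whole-number counts of reads per microRNA gene on the mm10 build. Counts on the gene's own strand were used, 7581366 in replicate 1 and 9865298 in replicate 2, which were 49.4% and 53.5% of all reads. They were scaled here to a total of 1000000 assigned counts per library (CPM). A gene with at least 10 counts in each library was called detected, which held for 314 genes, while 1494 genes had no count in either library. For skeletal muscle, the listed microRNAs made up 35.5% (replicate 1) and 42.8% (replicate 2) of the assigned counts. Nearly all of this share was Mir206, at 340841 and 416794 CPM, followed by Mir133b at 13610 and 10568 CPM. Of the 9 measured muscle genes 7 were detected. Among these, Mir1a-1 and Mir1a-2 had means of only 2.94 and 3.02 CPM. Mir133a-1 and Mir133a-2 were not detected. Why the Mir1a and Mir133a genes were low was not tested. The list for epithelium had 81 and 69 counts over 7 genes. Mir205 (33 counts in each library) and Mir203 (15 in each) were detected, and Mir200a and Mir429 had 0 counts. The list for neural cells had 74 and 160 counts over 8 genes. Mir219a-1 held 74 and 158 of these and was the only gene of the list detected. Mir9-1, Mir9-2 and the 3 Mir124a genes had 0 counts. The Mir9 genes share a mature arm, as do the Mir124a genes, and reads of a shared arm are not counted to a gene, so these neural zeros are weak evidence. The liver marker Mir122 had 8 and 4 counts.

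Of the 6 Hox cluster genes 5 were detected. The mean level of 3 genes was 100 CPM or more, which 133 of all 2202 genes reached. Together they had 27798 counts in replicate 1 and 21608 in replicate 2, which was 0.367% and 0.219% of the assigned counts (2928 ± 1044 CPM, SD, n = 2). The median of the members' mean levels was 289 CPM, against 0 CPM over all 2202 genes and 53.1 CPM over the detected genes. Nearly all of the members' counts came from the HoxA gene and the HoxC genes. The HoxB genes held few counts and the HoxD gene none.

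**Figure D1:**
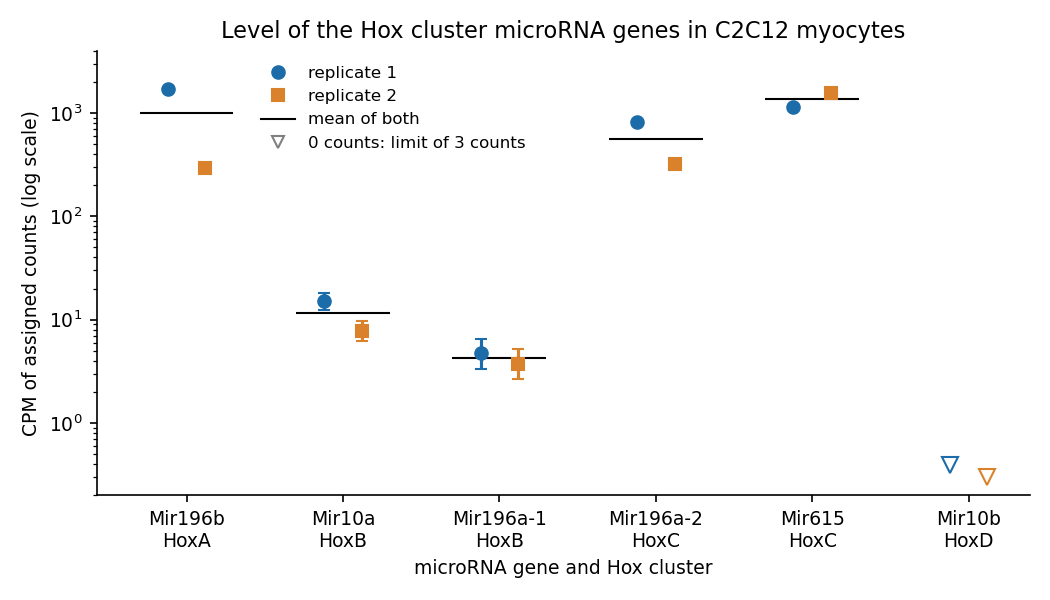
CPM of assigned counts (log scale) for each gene, ordered by Hox cluster A to D, with replicate 1 as circles, replicate 2 as squares, exact Poisson 95% intervals as error bars (counting error only) and the mean as a line. Mir615, Mir196b and Mir196a-2 lie between 294 and 1695 CPM, Mir10a and Mir196a-1 at or below 15.2 CPM, and open triangles mark the limit of 3 counts for Mir10b, which had 0 counts.

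In HoxA, Mir196b (ENSMUSG00000065443.1) lies on the minus strand of chromosome 6 from 52230081 to 52230165. It is inside the annotated span of Hoxa9, in an exon of 2 of its noncoding transcripts and in an intron of another, and 1032 bases past the end of Hoxa10. Mir196b had 12849 counts in replicate 1 and 2905 in replicate 2. These counts are 1695 CPM and 294 CPM (995 ± 990 CPM, SD, n = 2), so the library of replicate 1 was far above that of replicate 2. It ranked 48th among all genes in replicate 1 and 94th in replicate 2. Of all members it had the widest spread, with an SD about as large as its mean.

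In HoxB, Mir10a (ENSMUSG00000065519.1; chromosome 11, 96317165 to 96317274, plus strand) lies outside any annotated gene, 993 bases before Hoxb4. It had 115 counts in replicate 1 and 77 in replicate 2, or 15.2 CPM (exact Poisson 95% interval 12.5 to 18.2) and 7.81 CPM (6.16 to 9.76). Its rank by mean level was 207 and its mean was 11.5 ± 5.21 CPM (SD, n = 2). Both libraries held it at a low level, higher in replicate 1.

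Mir196a-1 (ENSMUSG00000065546.1; chromosome 11, 96265164 to 96265265, plus strand), the other HoxB gene, also lies outside annotated genes, 6192 bases before Hoxb9. Its count was 36 in replicate 1 and 37 in replicate 2, which is 4.75 CPM (3.33 to 6.57) and 3.75 CPM (2.64 to 5.17). The mean was 4.25 ± 0.706 CPM (SD, n = 2). The intervals overlap, so at this depth no difference between the libraries could be seen. Within each library Mir10a had more counts than Mir196a-1, 3.19 times as many in replicate 1 (exact interval 2.18 to 4.78) and 2.08 times in replicate 2 (1.39 to 3.17). Reads that end within the arm shared with Mir196a-2 are missing from the count of Mir196a-1, so this order is uncertain as an order of levels.

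In HoxC, Mir615 (ENSMUSG00000076010.1; chromosome 15, 103014910 to 103015001, plus strand) lies in an intron of the protein-coding transcript of Hoxc5. Its count was 8647 in replicate 1 and 15432 in replicate 2. With 1141 CPM and 1564 CPM (1352 ± 299.6 CPM, SD, n = 2) it had the highest mean of the 6 genes and rank 54 by mean level among all genes. It was the only detected member that was higher in replicate 2.

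Mir196a-2 (ENSMUSG00000065488.2; chromosome 15, 102973350 to 102973434, plus strand) lies between Hoxc10 and Hoxc9, 1457 bases past the first and 3005 before the second. It is also in the intron of a long noncoding transcript that the annotation gives to Hoxc5. Mir196a-2 had 6151 counts in replicate 1 and 3157 in replicate 2, or 811 CPM and 320 CPM (566 ± 347 CPM, SD, n = 2). Among uniquely mapped reads it exceeded its copy Mir196a-1 by 171 times in replicate 1 (exact interval 123 to 244) and by 85.3 times in replicate 2 (61.8 to 121). The split of the shared 22-base reads between the copies cannot be read from these tables.

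In HoxD, Mir10b (ENSMUSG00000065500.3; chromosome 2, 74726070 to 74726137, plus strand) lies in introns of Hoxd4 and Hoxd3 transcripts. Neither library held a count for it. With 0 counts its level could still have been as high as 0.396 CPM in replicate 1 or 0.304 CPM in replicate 2 (3 counts per library, a one-sided 95% limit for counting error only). The tables list 0 reads as ambiguous between genes on the same strand, and the opposite strand and either-strand columns for Mir10b were 0 as well. The count of Mir10a, its close relative, was 38.3 times the limit of 3 counts in replicate 1 and 25.7 times in replicate 2. The exact 95% interval of the ratio of Mir10a to Mir10b had its lower end at 30.7 in replicate 1 and 20.4 in replicate 2. The mature 5p arms of Mir10a and Mir10b were each found in 1 annotated hairpin only. Absence of Mir10b from these cells was not shown, since the limit covers sampling alone. Whether capture by the protocol, mapping or counting missed this microRNA was not tested, and copies of its sequence outside the annotated hairpins were not searched for. The only other microRNA gene annotated between the outermost Hox genes of the 4 clusters was Gm44463 in HoxD, with 0 counts in both libraries.

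**Figure D2:**
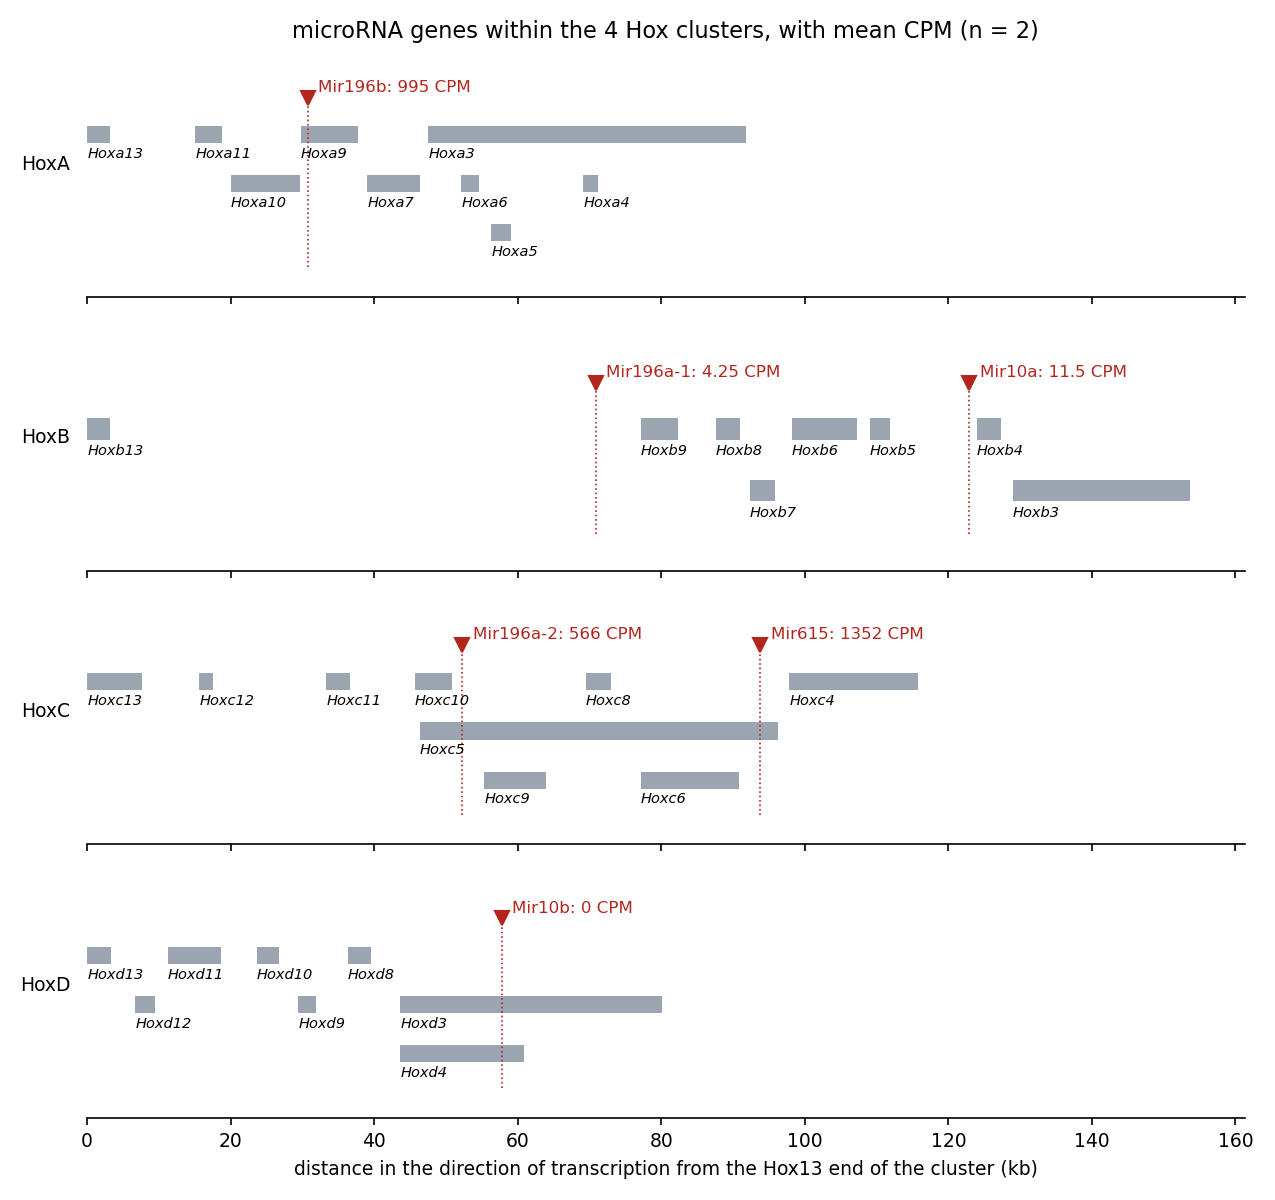
Maps of the 4 Hox clusters to one scale in kb, each drawn in the direction of transcription from its Hox13 gene, with the annotated spans of the Hox3 to Hox13 genes as grey bars and the microRNA genes as red markers with their mean CPM (n = 2). The 3 miR-196 genes lie next to or within Hoxa9, Hoxb9 and Hoxc9, and their means are 995 CPM in HoxA, 4.25 CPM in HoxB and 566 CPM in HoxC. The values of Mir196a-1 and Mir196a-2 can be too low, since multi-mapped reads of their shared arm are left out.

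By mean level the order was Mir615, Mir196b, Mir196a-2, Mir10a, Mir196a-1 and Mir10b. The first 3 could not be ranked beyond their spread. Mir615 had 0.673 times the count of Mir196b in replicate 1 and 5.31 times in replicate 2. Mir196b likewise had 2.09 times the count of Mir196a-2 in replicate 1 and 0.920 times in replicate 2. Below them the ranges were separate: the lowest value of Mir196a-2 was 320 CPM and the highest of Mir10a 15.2 CPM, and the lowest of Mir10a was 7.81 CPM and the highest of Mir196a-1 4.75 CPM. These values compare counts per hairpin and can differ from the molar order, because the yield of each microRNA in a library depends on its sequence. Mir196a-1 and Mir196a-2 also lack the multi-mapped reads of their shared arm, so their places in the order are uncertain.

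By cluster, HoxC took 53.2% of the members' counts in replicate 1 (exact binomial 95% interval 52.6 to 53.8) and 86.0% in replicate 2 (85.6 to 86.5). HoxA took 46.2% (45.6 to 46.8) and 13.4% (13.0 to 13.9). HoxB took 0.543% and 0.528% and HoxD 0%. HoxC had 1952 CPM in replicate 1 and 1884 CPM in replicate 2 (1918 ± 47.8 CPM, SD, n = 2), so its sum hardly moved while its members moved in opposite directions. By seed, the 3 miR-196 genes had 2511 CPM in replicate 1 and 618 CPM in replicate 2, Mir615 had 1141 and 1564 CPM, and the miR-10 genes had 15.2 and 7.81 CPM. In the assigned counts the miR-196 genes were thus above Mir615 in replicate 1 and below it in replicate 2. Multi-mapped reads of the arm shared by Mir196a-1 and Mir196a-2 are left out. The miR-196, HoxB and HoxC sums can therefore be too low, and the shares and the order in replicate 2 are uncertain.

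Each detected gene was compared between the libraries with the exact binomial test (two-sided), and p-values were adjusted after Benjamini-Hochberg over all 314 detected genes. The test compares these 2 libraries and covers counting error, not the spread between cultures, and 66.6% of the detected genes passed it. Of the 5 detected members 4 passed, which with so few genes is no result about the members as a group. Higher in replicate 1 were 3 of them, against 38.2% of the detected genes, and higher in replicate 2 was 1, against 28.3%.

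Mir196b was 5.76-fold higher in replicate 1 (exact interval 5.53 to 5.99; log2 ratio of replicate 1 over replicate 2, 2.52), a larger absolute ratio than 97.1% of the detected genes had. Mir196a-2 was 2.54-fold higher in replicate 1 (2.43 to 2.65; log2 ratio 1.34). Both passed the test. Mir10a was 1.94-fold higher in replicate 1 (1.44 to 2.63; log2 ratio 0.96; adjusted p = 1.08e-05, exact binomial test). Mir615 was 1.37-fold higher in replicate 2 (1.34 to 1.41; log2 ratio −0.46; adjusted p = 9.68e-125, exact binomial test). Mir196a-1 did not pass (log2 ratio 0.34; adjusted p = 0.420, exact binomial test), with a 95% interval of the ratio from 0.778 to 2.06. The median absolute log2 ratio over all detected genes was 0.51, so Mir196b, Mir196a-2 and Mir10a lay above that spread and Mir615 and Mir196a-1 below it.

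**Figure D3:**
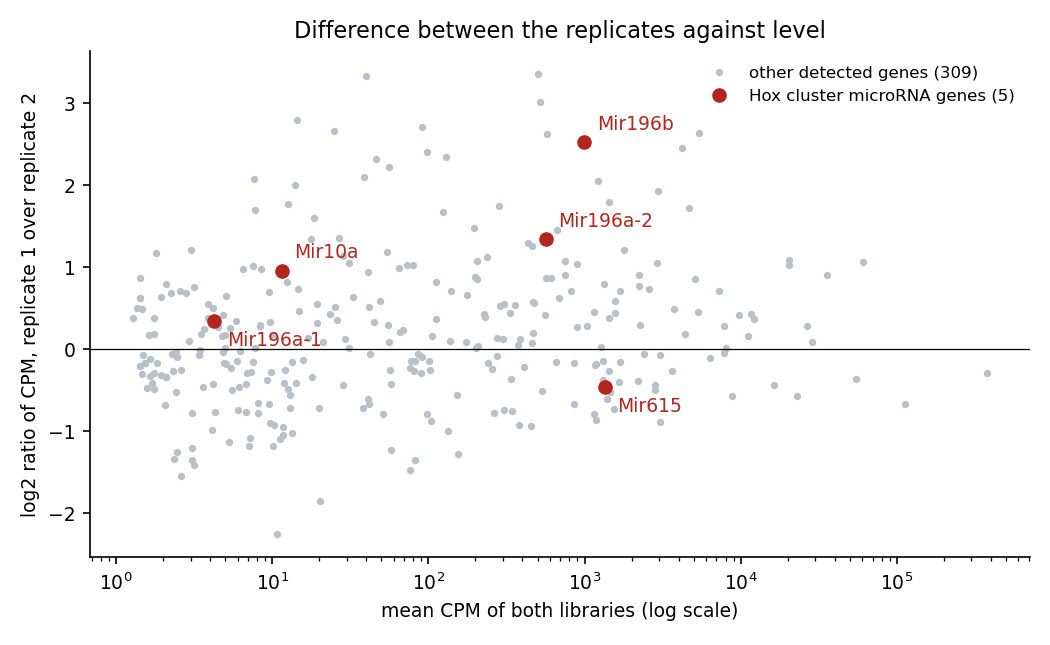
The log2 ratio of CPM, replicate 1 over replicate 2, against mean CPM (log scale) for the 314 detected genes, with the 5 detected Hox cluster microRNA genes in red. Mir196b (2.52), Mir196a-2 (1.34) and Mir10a (0.96) lie well above 0, Mir196a-1 (0.34) nearer to it and Mir615 (−0.46) below it.

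The base composition of the hairpins moved with this difference. Over the 314 detected genes the share of G and C bases in the hairpin and the log2 ratio had a Pearson r of −0.27 and a Spearman rho of −0.28, as a description across genes of the same pair of libraries. The hairpin of Mir615 had 69.6% G and C, more than 96.5% of the detected genes. Those of the other detected members had between 40.0% and 48.0%, below the median of 51.5% over detected genes. Among other detected genes within 5 percentage points of each member's value, the median log2 ratio was −0.06 around Mir615 (25 genes), 0.49 around Mir10a (66 genes), 0.19 around Mir196a-2 (95 genes), 0.05 around Mir196b (113 genes) and 0.05 around Mir196a-1 (117 genes). The ratio of each of these members was larger in size than that median. In a signed median, ratios of opposite sign cancel, and the median absolute log2 ratio over all detected genes was 0.51. Single genes can thus easily exceed such a median, and no conclusion is drawn from it. The part of base composition in the members' ratios was not tested.

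**Figure D4:**
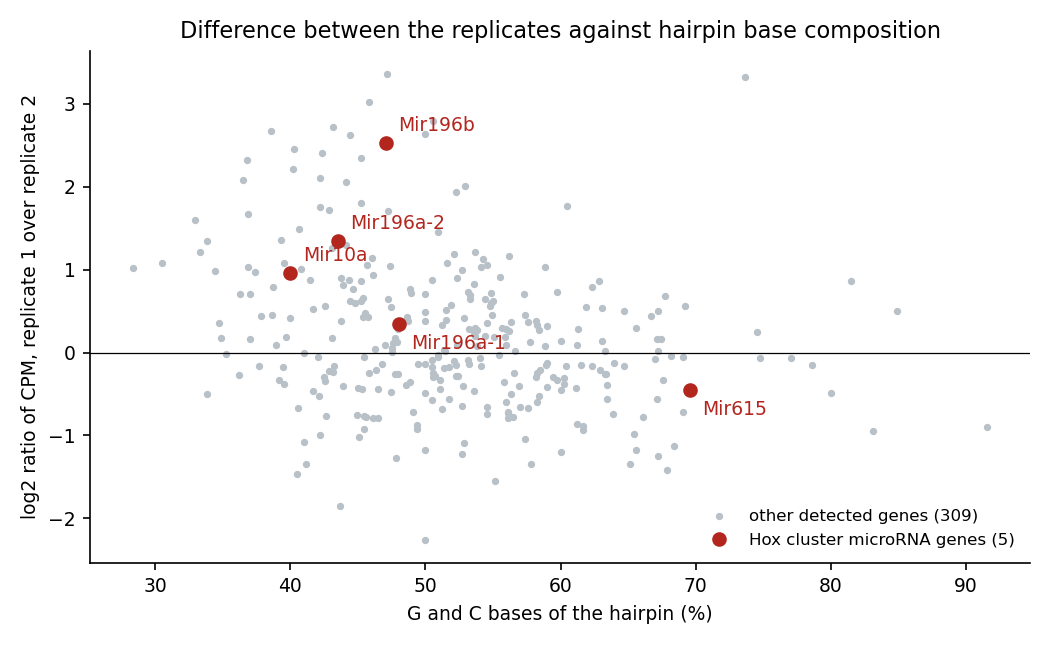
The log2 ratio of CPM, replicate 1 over replicate 2, against the percentage of G and C bases in the hairpin for the 314 detected genes, with the detected Hox cluster microRNA genes in red. Mir615, at 69.6%, is the only one of the 5 below 0, and the others, between 40.0% and 48.0%, are above it.

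Some markers of other cell types also differed between the libraries. The endothelial marker Mir126a, the only gene on its list, had 217 CPM in replicate 1 and 42.9 CPM in replicate 2. The 5 blood markers summed to 0.0105% of the library of replicate 1 and 0.0183% of that of replicate 2. Mir451a, of red blood cells, had 11.9 and 3.65 CPM and Mir142 89.0 and 178 CPM, which are differences in opposite directions. The remaining blood markers were not detected: Mir144 had 26 and 7 counts, Mir150 1 and 13 and Mir223 2 and 1. The cells were of a cultured myoblast line, and these counts do not show that endothelial or blood cells were present. Over all genes, 66.6% of the detected ones passed the test between the libraries. Neither the presence of such cells nor any part of them in the difference of Mir196b was tested.

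The detected genes nearest to each member in mean level and in the ratio between the libraries were found by the distance in log2 units over these 2 libraries. Mir196b was nearest to Mir34a (0.56 log2 units away), Mir98 (0.80) and Mir15a (0.90). For Mir196a-2 these were Mir96 (0.25), Mir155 (0.31) and Mir16-1 (0.39), the last of which shares its mature arm with Mir16-2 and has an uncertain count. Mir10a was nearest to Mir135b (0.18), Mir190b (0.37) and Mir598 (0.42), and Mir196a-1 to Mir3058 (0.10), Mir205 (0.15) and Mir7018 (0.16). Mir615 had the closest neighbours, Mir125a (0.09), Mir181c (0.12) and Mir744 (0.15). Each of the 3 lay at 1307 to 1451 CPM on average and was higher in replicate 2. None of the named neighbours lies in a Hox cluster.

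The relatives of miR-10 outside the Hox clusters, whose seed differs from that of miR-10, were far more abundant than Mir10a. Their mature arms are shown for comparison with those of miR-10, with the seed in capitals.
miR-99a-5p: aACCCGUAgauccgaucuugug
miR-99b-5p: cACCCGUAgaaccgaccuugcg
miR-100-5p: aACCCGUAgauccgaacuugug
Mir99a had 29486 CPM in replicate 1 and 27699 in replicate 2, Mir99b 11805 and 10530, and Mir100 8135 and 8073. Together they had 3258 times the count of Mir10a in replicate 1 and 5932 times in replicate 2. All 3 were detected, and their log2 ratios between the libraries lay between 0.01 and 0.16, smaller in size than those of the 5 detected Hox cluster genes.

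The annotated Hoxb8 transcripts were searched for their best pairing with miR-196a-5p as background, since no messenger RNA was measured. The best ungapped pairing of miR-196a-5p with a Hoxb8 transcript (chromosome 11) used all 22 bases, 21 as Watson-Crick pairs and 1 as a G:U pair at base 5 of the microRNA. It starts 418 bases after the stop codon. The site is printed as it reads in the messenger, in DNA letters, with capitals for the bases opposite the seed.
Hoxb8 site: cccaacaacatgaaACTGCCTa
The pairing is a match of letters, and its use was not measured in these data.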

How the data were processed

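Per the labels, total RNA of 2 biological replicates of C2C12 myocytes was sequenced with a short-RNA protocol and adapters were trimmed. The authors deposited, per library, raw counts of reads per microRNA gene for either strand, the gene's strand and the opposite strand, with build mm10 and annotation M21 per the deposited notes. Aligner and counting program: not given in the sources used here. Reads in the 4 entries that name no gene (unmapped, multi-mapped and the like; 50.6% of reads in replicate 1 and 46.5% in replicate 2) entered neither library sizes nor tests. CPM, ranks, exact intervals (95%, counting error only; no molecular identifiers) and the exact binomial test (scipy 1.17.1) were computed here, with a threshold of 0.05. With 1 group, no edgeR test of conditions was possible. Because nothing states that the replicates were separate cultures, the SDs may be technical in part. The test was tried on counts simulated without spread between cultures. It called 91% of the genes given a 2-fold change and 3.51% of the unchanged genes. That setting covers counting error only, so it does not show how the test behaves with spread between cultures. Alternatives used edgeR 4.0.16 and DESeq2 1.42.0 for scaling only. Sequences came from RefSeq (GRCm38.p6) and GENCODE M21 transcripts. A withheld item is not reported here. The members and lists were chosen with earlier results of these data known. Genes named are the members, the 3 nearest detected genes to each detected member, marker genes, miR-10 relatives, genes with a shared seed and other microRNA genes in the Hox clusters.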

Additional observations from a re-analysis of the deposited data

Results flagged for a closer look

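Reads that mapped to several places enter no gene level, and they numbered 3378438 in replicate 1 and 3295854 in replicate 2. They are named here because reads of miR-196a-5p that end within the stretch shared by Mir196a-1 and Mir196a-2 would be among them. How many of them are miR-196a was not tested.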

How the results depend on the processing

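No paired analysis was possible because the series has 1 group. The number of members with at least 10 counts was 5 under the strand, scaling and denominator alternatives and with either replicate left out. Mir10b had 0 counts in every column, so its ratio to Mir10a was 0 by construction under its alternatives. The summed level of the 6 genes was 1491 CPM with all reads as denominator and 4659 CPM with Mir206 left out of the total. Leaving out a replicate gave 2190 to 3667 CPM. Under either-strand counts, TMM factors, DESeq2 size factors, both denominators and minimums of 1 count or none, 4 members passed the binomial test, each in its main direction. With a minimum of 100 counts, which keeps 3 members, 3 passed. The genes that passed numbered 166 to 227, against 209. Leaving Mir206 out of the total moved the median log2 ratio of all detected genes to −0.09, against 0.09 with totals. Mir196b then had a log2 ratio of 2.35 and Mir615 of −0.63. Depth limits Mir196a-1 and Mir10a, with 36 to 115 counts per library, and the limit for Mir10b. A binomial test between replicates could not be run with a replicate left out.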
